A study of Mus musculus with 24 samples.

Results

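The genotype difference in the 24 h response to BDNF was the change that BDNF brought in H2BE-knockout neurons minus the change it brought in wild-type neurons. It was estimated in 16 of the 24 RNA-seq libraries of the study, namely 4 untreated and 4 BDNF 24 h libraries of each genotype. All were primary cortical neurons from E16.5 mouse embryos, kept for 12 days in culture. Wild-type (WT) neurons carried no engineered allele that the labels name. Knockout (KO) neurons carried the allele labelled H2BE-KO/mCherry-KI, a knockout of the histone H2B variant H2BE with a knock-in of the red fluorescent protein mCherry. Neither the BDNF dose nor the number of embryos or litters behind each culture is given in the sources used here. The design text calls the replicates biological. A culture code in the library descriptions joins 1 untreated and 1 BDNF library, giving 8 cultures: WT2C, WT2D, WT2E and WT2F, and KO2A, KO2B, KO2C and KO2D.

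BDNF (brain-derived neurotrophic factor) is released by neurons and activates the receptor tyrosine kinase TrkB on neurons. TrkB signals through the Ras-ERK, phospholipase C and PI3K-Akt pathways to a first wave of transcription factor genes and then to later genes for synaptic, secreted and structural proteins. H2BE replaces the usual H2B in part of the nucleosomes, the protein spools that carry DNA. A difference between genotypes in a response can come from the untreated level, from the level under BDNF, or from both, so both are given for the genes described here.

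Total counts were 23734512 to 61860243 per library. CPM are counts scaled to a common effective library size, which is the library total times its TMM scaling factor. The targeted gene, Hist2h2be (mm10 chromosome 3, 96221119 to 96223738), stood at 4.78, 4.88, 4.72 and 5.91 CPM in the untreated WT libraries. It stood at 3.42, 3.42, 3.22 and 3.28 CPM in WT at 24 h. In the KO libraries it was 50.5, 61.3, 58 and 54.2 CPM untreated and 50.6, 61.5, 54.2 and 21.2 CPM at 24 h. The genotypes did not overlap, and RNA counted to this gene was higher in the libraries labelled KO. Counts per gene do not show which part of the gene the reads cover, so they do not test the loss of the protein. The low KO value belongs to the library labelled KO2D 24 h. In that library Xist, the RNA that silences an X chromosome in female cells, was at 144 CPM and the Y-linked Ddx3y at 66.1 CPM, while its untreated partner had 420 and 0.191 CPM. In the other 7 cultures both libraries showed the same one of these genes. The KO2D 24 h library thus held Y-linked RNA that its untreated partner nearly lacked. By these values the KO2D libraries were not a matched pair of the same cells. They were fitted as 1 culture because the labels say so, and how the mismatch arose was not tested. Mitochondrially encoded genes took 18.5% and 10.9% of the counts in the KO2D libraries, 9.34% and 9.26% in KO2C, and 4.18% to 5.77% in the others. Counts below are therefore given with and without culture KO2D.

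With a term for each culture, 349 of 16243 genes differed between KO and WT in their 24 h response (edgeR's quasi-likelihood test, Benjamini-Hochberg adjusted p under 0.05 over all genes tested). The response was lower in KO for 217 genes (1.34% of those tested) and higher for 132 (0.813%). Responses are log2 changes, so a gene that starts higher in KO can gain as many CPM and still have the smaller response. Most genes of the first group rose in WT. Among the 217, 115 rose in both genotypes, 83 rose in WT and did not pass in KO, and 10 rose in WT and fell in KO. Another 8 fell in KO alone and 1 fell in both. The second group was the mirror image, with 70 of 132 genes falling in WT and not passing in KO and 44 falling in both. A further 10 rose in KO alone, 7 fell in WT and rose in KO, and 1 rose in both. In WT, 3180 genes rose and 2828 fell at 24 h (19.6% and 17.4%), and in KO 1675 rose and 1711 fell (10.3% and 10.5%). Scaling by library totals alone turned the KO split to 1975 rises and 1253 falls. The median difference over all genes was -0.02 on the log2 scale and 0.01 with library totals alone.

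**Figure D1:**
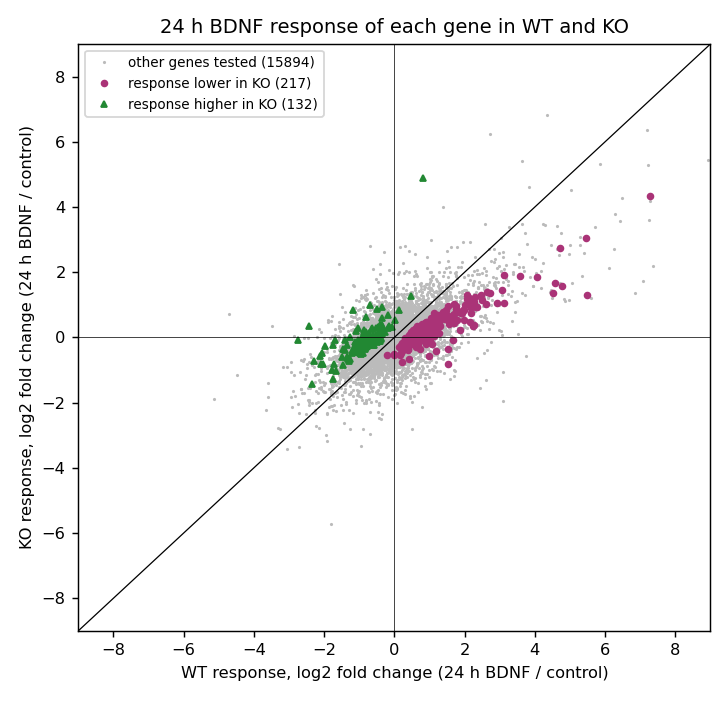
Fitted log2 fold change at 24 h of each of the 16243 genes tested in WT (horizontal axis) and KO (vertical axis), 4 cultures each. The diagonal marks equal responses. The 217 genes with a lower response in KO lie mostly to the right of 0 and below the diagonal, and the 132 with a higher response mostly to the left of 0 and above it.

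Without both KO2D libraries, 906 genes had a lower and 470 a higher response in KO (5.53% and 2.87% of 16388 genes tested). All 349 genes were called again, each in the same direction. The biological coefficient of variation was 12% with KO2D and 8.2% without it. Leaving out any other culture lowered the count to between 112 and 213. With 1 mean per group and no term per culture, 9 genes passed, 5 higher and 4 lower. That count was 90 without KO2D, 29 higher and 61 lower. In the 16 libraries all 349 kept their sign without the culture term. Both fits estimate the same contrast from the same libraries, so the kept signs are no separate support. Leaving the mitochondrially encoded genes out before scaling gave 156 higher and 164 lower. The responses of the 4 KO cultures lay wholly below those of the 4 WT cultures for 211 of the 217 genes and wholly above for 130 of the 132. Over all genes tested these arrangements held for 6.43% and 4.91%. These are the same contrast as the call and are given as a description. The descriptions also number the untreated libraries 1 (WT2C, WT2D and KO2A) or 2 (the other 5 cultures). Among the cultures numbered 2, no gene passed with KO2D by edgeR (1261 at an unadjusted p under 0.05), and 198 passed without it, 58 higher and 140 lower.

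The mean response was smaller in KO, among the rises and among the falls. A gene was placed among the rises or falls by the mean of the WT and KO responses, which favours neither genotype. For the 3591 rises, the mean log2 change was 0.632, 0.673, 0.681 and 0.622 in the WT cultures. It was 0.375, 0.445, 0.382 and 0.545 in KO2A, KO2B, KO2C and KO2D. Every KO culture lay below every WT culture, with means of 0.65 ± 0.03 and 0.44 ± 0.08 (SD, n = 4), so the KO rise was 67% of the WT rise on the log2 scale. For the 3363 genes that fell, WT cultures stood at -0.545 to -0.593 and KO cultures at -0.378 to -0.463. The KO fall was 72.9% of the WT fall, and the cultures again did not overlap. KO had the smaller estimated change in 77.9% of the rises and 71.5% of the falls. Across these 6954 genes the KO and WT responses correlated with Pearson's r of 0.851 and Spearman's rho of 0.894. Choosing genes by the mean of both responses favours those that moved the same way in both, which raises these values. They are a description across genes measured in the same libraries, and genes are not independent replicates. Without KO2D the KO rise was 63.6% and the KO fall 76.4% of the WT values.

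**Figure D2:**
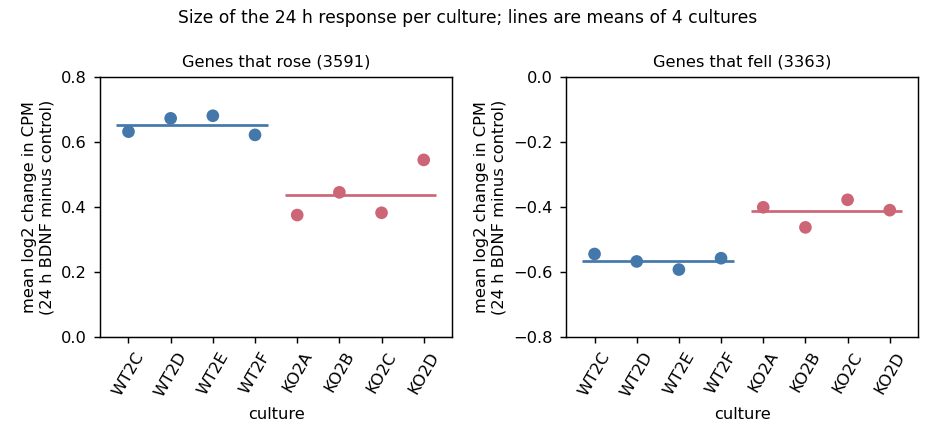
Mean log2 change in CPM from control to 24 h BDNF in each of the 8 cultures, for the 3591 rises and 3363 falls by the mean of the WT and KO responses; lines are means of 4 cultures. All 4 KO points lie nearer to 0 than all 4 WT points in both panels, and KO2D is the highest KO point among the rises.

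Genes with a lower response in KO mostly started higher there. Before BDNF the KO mean was above the WT mean for 206 of the 217 genes, 154 of them past the threshold (edgeR, 1 mean per group), and 26.2% of all genes passed between the untreated genotypes in either direction. At 24 h, 27 of the 217 were past the threshold above WT and 25 below, where 17% of all genes passed. The gap between the KO and WT means was smaller at 24 h for 172 of them. The 132 genes with a higher response mostly started lower in KO: 124 had the lower untreated mean there, 91 past the threshold. Their gap was smaller at 24 h in 101. An untreated level that is high by error lowers the estimated response of the same gene, since the untreated libraries enter both values, so these counts are a description.

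Chaperones and translocation genes of the endoplasmic reticulum (ER), where secreted and membrane proteins are folded, included 11 with a lower response in KO. They belong to a list of 39 chosen after the values were seen, of which 34 rose in WT and 25 in KO. The 11 were 28.2% of the list, against 1.34% of all genes tested. Without KO2D 22 had a lower response, where 5.53% of all genes did. The estimate was negative for 36 of 39, against 53.4% of all genes tested. Since most of the list rose, the nearer comparison is all rises, of which 77.9% had a negative estimate. The calls gathered there too: of the 217, those that rose in WT were 115, 83 and 10 by their KO result. These lay among the 3180 genes that rose in WT. The 1.34% is therefore a low mark for this list and for the later lists that mostly rose. The list's median response was 0.54 in WT and 0.27 in KO, and its median difference was -0.36 with KO2D and -0.36 without, against -0.02 for all genes. Hspa5 (chromosome 2, 34771970 to 34777547), which encodes the chaperone BiP, stood at 391, 437, 438 and 360 CPM in untreated WT. At 24 h it reached 972, 1113, 1026 and 843 CPM. In KO it went from 704, 551, 602 and 699 CPM to 988, 815, 976 and 1139 CPM. The untreated KO libraries were all above the untreated WT libraries, and the 24 h libraries of the genotypes overlapped. The log2 response was 1.28 ± 0.05 in WT and 0.61 ± 0.05 in KO (± SE), a difference of -0.67 ± 0.07 (edgeR adjusted p = 0.0021). It passed without each culture in turn, at -0.70 to -0.61.

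Hsp90b1 (chromosome 10, 86690209 to 86705509), the HSP90 of the ER, was at 309, 326, 311 and 286 CPM in untreated WT and 505, 426, 507 and 646 CPM in untreated KO. At 24 h it was at 561, 610, 569 and 515 CPM in WT and 618, 563, 706 and 713 CPM in KO. The untreated groups did not overlap and the treated ones did. Its difference was -0.54 ± 0.08 (edgeR adjusted p = 0.00559). Sdf2l1, which works with BiP, rose from 7.47 ± 1.24 to 22.1 ± 3.46 CPM in WT (SD, n = 4) and from 17 ± 3.35 to 22.6 ± 2.22 in KO. Its difference, -1.14 ± 0.15 (edgeR adjusted p = 0.00257), was the most negative of the list. Co-chaperones and folding factors Hyou1, Dnajb11 and Manf had differences of -0.43, -0.38 and -0.44. Translocon genes Sec61a1, Sec61b, Ssr3 and Serp1, which pass or stabilise new chains at the ER membrane, had -0.32, -0.61, -0.51 and -0.71. Xbp1, a transcription factor of the unfolded protein response, had -0.41.

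**Figure D3:**
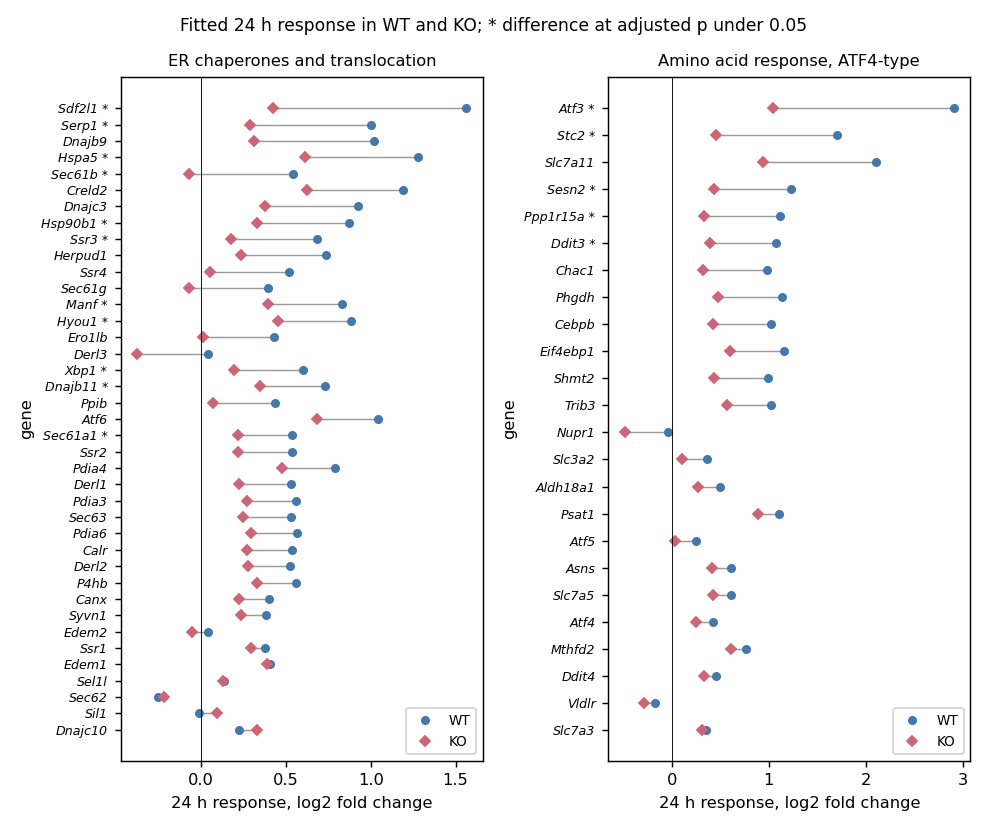
Fitted log2 response at 24 h of each tested member of the ER list (39 genes) and the amino acid response list (24 genes), WT circles and KO diamonds, ordered by the difference; asterisks mark the 11 and 5 genes that passed. The KO diamond lies to the left of the WT circle for 36 of 39 and for all 24 genes.

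The promoters of ER chaperone genes are known for the ER stress element, CCAAT and CCACG with 9 bases between them, which ATF6 reads together with NF-Y. Promoters (250 bases before to 50 after the start) came from RefSeq on GRCm38.p6, which held 31 of the 39 list genes, and motifs were sought on both strands. The element was in 28.1% of their promoters (9 genes) and in 0.119% of all 32851 promoters. It was chosen for the search after the values were seen. Such genes are known for the element, so its share in the list does not bear on the genotype difference. Its holders Pdia6, Calr, Canx, Dnajc3, Creld2, Syvn1 and Derl3 did not pass with KO2D. Dnajb11, Sdf2l1, Sec61b, Ssr3, Serp1 and Xbp1 passed without holding it. Among the 217 genes with a lower response, 157 had a promoter in the table, and 2 of these, Hspa5 and Hsp90b1, held the element. Both promoters are shown because these genes are members of the list that passed and hold the element; capitals mark the element, whose first base lies 65 bases before the start in Hspa5 (chr2:34771840-34772139, plus strand) and 212 and 107 bases before it in Hsp90b1 (chr10:86705395-86705694, minus strand).
Hspa5: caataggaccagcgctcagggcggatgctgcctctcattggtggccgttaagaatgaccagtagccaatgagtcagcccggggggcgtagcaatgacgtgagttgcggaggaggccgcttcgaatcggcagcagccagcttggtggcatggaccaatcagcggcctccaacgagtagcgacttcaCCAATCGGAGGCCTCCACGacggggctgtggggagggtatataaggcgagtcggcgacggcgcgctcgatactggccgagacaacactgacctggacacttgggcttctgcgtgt
Hsp90b1: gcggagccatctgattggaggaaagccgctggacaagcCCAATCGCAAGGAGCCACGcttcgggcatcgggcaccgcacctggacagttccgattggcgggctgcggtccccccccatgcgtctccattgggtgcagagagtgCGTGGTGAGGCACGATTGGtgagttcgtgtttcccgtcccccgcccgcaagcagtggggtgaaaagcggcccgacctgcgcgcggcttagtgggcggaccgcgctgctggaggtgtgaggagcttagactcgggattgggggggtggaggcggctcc
A match is a description of these letters and not a measured binding site.

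Genes of the amino acid and integrated stress response, which the transcription factor ATF4 governs, showed the same direction. This list of 24 was also chosen after the values were seen. In it 5 had a lower response in KO (20.8%, against 1.34% of all genes). Without KO2D 15 did, where 5.53% of all genes did. All 24 estimates were negative, with a median of -0.45 (-0.46 without KO2D) and median responses of 0.99 in WT and 0.42 in KO. In this list 22 genes rose in WT, and the estimate was negative for 77.9% of all rises. Atf3 (chromosome 1, 191170296 to 191218039), a stress- and activity-induced transcription factor, was at 4.42, 5.97, 5.04 and 2.43 CPM in untreated WT and at 35.2, 38.6, 34.2 and 23.2 CPM at 24 h. In KO it went from 12.6, 9.63, 12.7 and 9.29 CPM to 25, 21.2, 16.51 and 30 CPM. Untreated KO libraries all lay above untreated WT libraries, and only 2 of the 4 treated KO libraries reached the WT range. The difference was -1.86 ± 0.23 (edgeR adjusted p = 0.00257), and every KO culture responded less than every WT culture.

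Stc2, the secreted glycoprotein stanniocalcin 2, rose from 23.9 ± 8.17 to 75 ± 11.8 CPM in WT and from 53.5 ± 6.97 to 73.3 ± 7.16 CPM in KO (difference -1.25 ± 0.17, edgeR adjusted p = 0.00388). Ddit3, which encodes the stress factor CHOP, rose from 24.5 ± 3.03 to 51.4 ± 4.83 CPM in WT and from 41.6 ± 5.86 to 54.8 ± 7.68 CPM in KO. Its difference was -0.68 ± 0.09 (edgeR adjusted p = 0.00349). Ppp1r15a, a phosphatase subunit that reverses the translation block of this pathway, rose from 38.3 ± 12.1 to 80.5 ± 12.7 CPM in WT and from 71.1 ± 9.3 to 89.2 ± 9.93 CPM in KO, with a difference of -0.78 ± 0.11. In these 3 genes the treated levels of the genotypes were closer than the untreated ones. Sesn2, a leucine-sensing inhibitor of mTORC1, had -0.79. Transport and synthesis genes such as Slc7a11, Phgdh and Asns had -1.16, -0.66 and -0.20 and did not pass with KO2D. Atf4 itself is regulated largely at translation, which RNA counts do not measure.

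The amino acid response element was sought as TGATGNAA and the cyclic AMP response element (CRE, read by CREB and ATF factors) as TGACGTCA. The first, also chosen after the values were seen, was in 29.2% of the list's promoters (7 of 21 genes) and 3.97% of all promoters. Of the members that passed, Atf3 held it, and Ddit3, Stc2, Sesn2 and Ppp1r15a did not. This first element was in 4.5% of the promoters of genes with a lower response and in 5.88% for a higher response. The CRE was in 4% and 1.47% of these promoters and in 1.79% of all. The AP-1 site TGANTCA was in 10.5% and 4.41%, with 7.81% of all. The E-box CANNTG was in 64% and 59.6%, with 72.3% of all. Sites of different motifs can share bases, and each motif was counted on its own. Atf3 is shown with the first element in capitals (chr1:191183284-191183583, minus strand, read on the other strand), and Ppp1r15a (chr7:45526219-45526518, minus strand) and Scg2 (chr1:79439977-79440276, minus strand) with the CRE in capitals, as 3 called genes of the stress and late groups.
Atf3: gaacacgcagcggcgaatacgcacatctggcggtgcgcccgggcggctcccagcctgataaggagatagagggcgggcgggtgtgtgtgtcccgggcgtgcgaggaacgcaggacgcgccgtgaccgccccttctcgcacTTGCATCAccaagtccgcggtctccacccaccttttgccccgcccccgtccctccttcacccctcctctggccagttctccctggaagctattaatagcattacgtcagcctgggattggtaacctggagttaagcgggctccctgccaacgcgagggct
Ppp1r15a: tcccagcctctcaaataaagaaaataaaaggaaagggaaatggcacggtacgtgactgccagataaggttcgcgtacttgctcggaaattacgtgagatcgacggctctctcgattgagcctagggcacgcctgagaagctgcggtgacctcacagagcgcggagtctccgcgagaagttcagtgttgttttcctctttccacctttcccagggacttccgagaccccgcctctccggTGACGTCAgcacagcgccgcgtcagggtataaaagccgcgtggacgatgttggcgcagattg
Scg2: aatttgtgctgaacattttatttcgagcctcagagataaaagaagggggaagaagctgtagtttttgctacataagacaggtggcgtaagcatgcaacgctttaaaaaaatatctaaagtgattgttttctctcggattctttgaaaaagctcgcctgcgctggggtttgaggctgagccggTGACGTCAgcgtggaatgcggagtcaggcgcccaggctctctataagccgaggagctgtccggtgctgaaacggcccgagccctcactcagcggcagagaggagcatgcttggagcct
The matches start 110, 12 and 68 bases before the start.

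Late activity-regulated genes, which encode synaptic and secreted proteins, gave 7 calls. Of 44 tested, 34 rose in WT and 24 in KO. All 7 called had a lower response in KO (15.9%, against 1.34% of all genes). Without KO2D 15 did, where 5.53% of all genes did. The estimate was negative for 84.1% of the list and 77.9% of all rises. The list's median difference was -0.27 (-0.28 without KO2D). Nptx2 (chromosome 5, 144545902 to 144557478), a secreted pentraxin that clusters AMPA receptors, was at 18, 20.7, 19.2 and 12.9 CPM in untreated WT and 82.3, 55.9, 77.5 and 56.7 CPM in untreated KO. At 24 h it reached 91.6, 157, 112 and 83 CPM in WT and 172, 180, 196 and 163 CPM in KO. KO was above WT without overlap at both times, and the log2 response was smaller in every KO culture than in every WT culture (difference -1.22 ± 0.15, edgeR adjusted p = 0.00211). Scg2, the granin secretogranin II of dense-core vesicles, was at 620, 619, 452 and 426 CPM in untreated WT and 1255, 1195, 1351 and 1361 CPM in untreated KO. Its 24 h levels were 1332, 1581, 1184 and 1217 CPM in WT and 1955, 2118, 2064 and 1909 CPM in KO. KO was again higher at both times, with a difference in response of -0.70 ± 0.10 (edgeR adjusted p = 0.00431).

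Rheb, the small GTPase that activates mTORC1, rose in WT from 138 ± 9.7 to 200 ± 11.8 CPM and stood at 181 ± 30.1 and 181 ± 36.1 CPM in KO, a difference of -0.55 ± 0.08 (edgeR adjusted p = 0.00431). Its response was 0.54 in WT and 0.00 in KO. Ptgs2, the inducible cyclooxygenase, had 44 counts over the 4 untreated WT libraries, 1 of them at 0, and 1074 over the untreated KO libraries. It was at 5.99, 7.42, 12.1 and 4.34 CPM in WT at 24 h and at 26, 25.5, 24.8 and 11.6 CPM in KO, from 8.26, 4.97, 9.87 and 6.13 CPM untreated. Untreated KO libraries were thus in the range of treated WT libraries. Its difference of -3.19 ± 0.47 (edgeR adjusted p = 0.00559) rests on these few WT counts. Kcna1 (a potassium channel), Inhba (activin A) and Vgf (a neuropeptide precursor) also passed, at -0.63, -0.75 and -1.13.

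**Figure D4:**
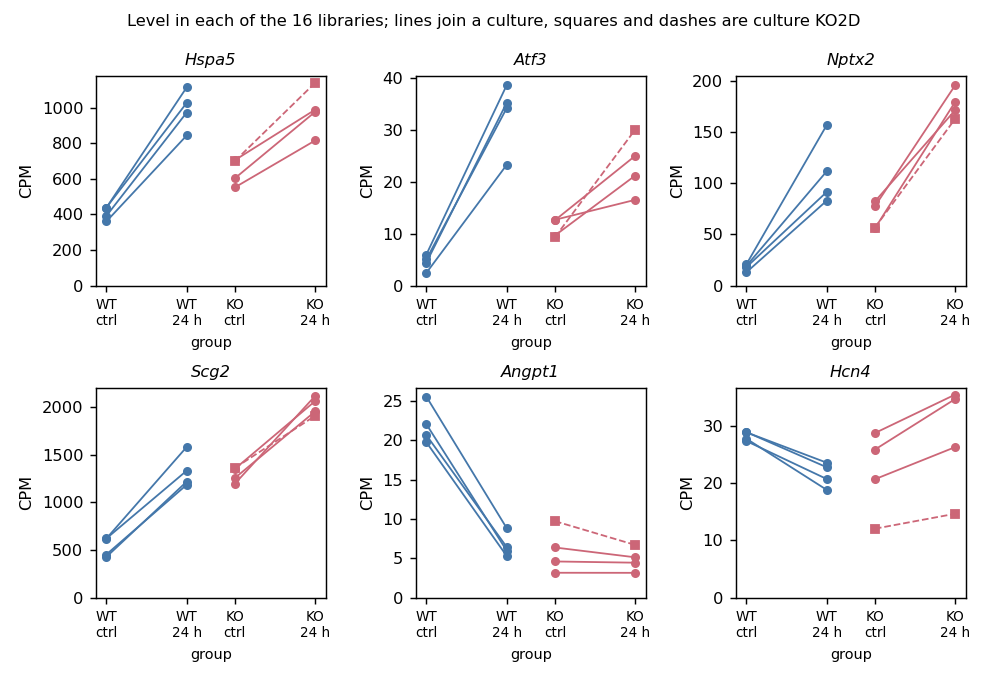
CPM of 6 genes in each of the 16 libraries, from 0; lines join the untreated and 24 h library of a culture, and squares with dashes are KO2D. Hspa5, Atf3, Nptx2 and Scg2 start higher in KO and have the smaller log2 response there, Angpt1 starts lower in KO and falls less, and Hcn4 falls in the 4 WT cultures and rises in the 4 KO cultures.

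Among negative-feedback genes of ERK signalling, 17 of 22 tested rose in WT and 13 in KO. Of the 22, 6 had a lower response (27.3%, against 1.34% of all genes) and 1, Etv1, a higher one. Without KO2D 13 were lower, where 5.53% of all genes were. The estimate with KO2D was negative for 77.3% of the list and 77.9% of all rises. The median difference was -0.51 (-0.61 without KO2D). Dusp4, a nuclear MAP kinase phosphatase, was at 30.9, 32.1, 31.6 and 31.4 CPM in untreated WT and 93.8, 85.7, 74.4 and 48 CPM in untreated KO, and at 99.4, 104, 78 and 113 CPM against 119, 138, 101 and 84.9 CPM at 24 h. Untreated groups did not overlap and treated ones did (difference -1.07 ± 0.13, edgeR adjusted p = 0.00257). Dusp5, another ERK phosphatase, rose from 8.23 ± 2.51 to 38.5 ± 4.29 CPM in WT and from 12 ± 2.01 to 25.6 ± 4.18 CPM in KO (-1.18 ± 0.23, edgeR adjusted p = 0.0239). Here the treated KO libraries all lay below the treated WT libraries. Its call was lost without any one culture except WT2E and KO2D. The Ras-pathway inhibitors Spry2, Spry4, Spred1 and Spred3 had differences of -0.72, -0.88, -0.53 and -0.99.

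Rapid activity-regulated genes, the first wave after stimulation, gave fewer calls at 24 h than the late ones with KO2D, and more without it. Their share with a lower response was 6.98%, against 1.34% of all genes. Of 43 tested, 3 passed, all lower: Atf3, Ppp1r15a and Csrnp1 (-1.10 ± 0.18, edgeR adjusted p = 0.00853). Without KO2D 17 passed, all lower, where 5.53% of all genes were lower. The median difference went from -0.28 with KO2D to -0.53 without it. The estimate with KO2D was negative for 81.4% of the list and 77.9% of all rises. Arc, a regulator of AMPA receptor trafficking, shows what KO2D does here. It was at 64.9, 60.4, 63.3 and 40 CPM in WT at 24 h and at 24.1, 19.6, 18.7 and 61.4 CPM in KO, the last value being KO2D. Untreated it was at 4.72, 4.57, 3.38 and 6.96 CPM in WT and 9.21, 5.04, 5.79 and 4.02 CPM in KO. With KO2D the genotypes overlapped at 24 h and the difference was -1.38 ± 0.48 (edgeR adjusted p = 0.172); without it the difference was -1.85 (edgeR adjusted p = 0.00175). Jun had -0.78 with an edgeR adjusted p of 0.0675 and passed without KO2D (edgeR adjusted p = 0.000282).

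Among called genes with a mean of at least 1 CPM, the most negative differences were those of Ptgs2, Emp1, Ifi209, Spink2, Akr1b8, Lhfpl1, Odaph, Crisp1, Gimap6, Col9a1, Sertad1 and Cdk15, at -3.19 to -1.88. Most were nearly silent in untreated WT: Emp1 had 56 counts over its 4 libraries, Ifi209 22, Spink2 15 and Odaph 23. Emp1, a membrane protein of epithelial type, was at 0.121, 0.571, 0.699 and 0.0477 CPM in untreated WT and at 5.58, 3.91, 6.6 and 5.65 CPM in untreated KO. At 24 h it was at 6.72, 9.13, 11.8 and 3.67 CPM in WT and at 15.3, 14.9, 13.3 and 11.5 CPM in KO. The untreated genotypes did not overlap and the treated ones overlapped slightly (difference -3.15 ± 0.36, edgeR adjusted p = 0.00211). Akr1b8, an aldo-keto reductase, and the interferon-inducible Ifi209 reached similar levels in both genotypes, 10.3 ± 0.675 against 10.5 ± 2.52 CPM and 22.3 ± 8.54 against 22.8 ± 3.96 CPM. Akr1b8, Ifi209 and Gimap6 belong to families of similar genes, and how reads shared between copies were counted is not given. Sertad1, a transcriptional cofactor, rose from 1.52 ± 0.495 to 7.17 ± 1.59 CPM in WT and went from 4.74 ± 0.471 to 6.21 ± 0.826 CPM in KO (-1.88 ± 0.21, edgeR adjusted p = 0.0021). Col9a1, a collagen chain, went from 1.07 ± 0.765 to 4.79 ± 2.35 CPM in WT and from 8.27 ± 0.783 to 10.5 ± 1.6 CPM in KO. Spink2, Akr1b8, Ifi209, Lhfpl1, Odaph, Crisp1 and Cdk15 each lost their call without at least 1 culture. Emp1, Col9a1, Sertad1, Gimap6 and Ptgs2 kept theirs without each culture in turn.

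A small set of 17 genes, picked after their values were seen, responded in opposite directions, past the threshold in both genotypes. The 10 that rose in WT and fell in KO were Mylk, Mybl1, Dlc1, Tceal9, AI504432, Scai, Pnrc2, Qpct, Rims4 and Setd7. Mylk, a myosin light chain kinase, went from 4.17 ± 1.17 to 9.28 ± 1.6 CPM in WT and from 26.9 ± 2.38 to 20 ± 2.13 CPM in KO (difference -1.61 ± 0.19, edgeR adjusted p = 0.00211). The transcription factor Mybl1 went from 3.32 ± 1.28 to 6.41 ± 1.15 CPM and from 13.1 ± 2.49 to 8.74 ± 0.801 CPM. Untreated KO means were well above the WT means in both genes, and the treated means were closer. Rims4, a protein of presynaptic release sites, rose by 0.19 in WT and fell by 0.22 in KO on the log2 scale, from 201 ± 8.5 and 223 ± 22.8 CPM.

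The 7 that fell in WT and rose in KO were Nts, Tox3, Etv1, Sh3d19, Hcn4, Adgrb3 and Lrrtm4. Nts, the neuropeptide neurotensin, was at 18.3, 12.2, 12.6 and 18.9 CPM in untreated WT and 10.1, 8.77, 8.89 and 9.74 CPM at 24 h. In KO it went from 1.96, 3.03, 3.47 and 8.62 CPM to 4.3, 8.49, 6.19 and 12.2 CPM. It fell in 4 of 4 WT cultures and rose in 4 of 4 KO cultures (difference 1.69 ± 0.21, edgeR adjusted p = 0.00257). Hcn4, a hyperpolarization-activated channel, was at 27.8, 28.9, 27.4 and 29 CPM in untreated WT and 18.9, 23.6, 20.8 and 22.8 CPM at 24 h. In KO it went from 28.8, 25.9, 20.7 and 12.1 CPM to 35.6, 34.8, 26.4 and 14.7 CPM. Its untreated groups overlapped, unlike those of Nts, and its difference was 0.74 ± 0.10 (edgeR adjusted p = 0.0033). Tox3, a chromatin-associated HMG-box protein, had 1.44 ± 0.16 (edgeR adjusted p = 0.0021), and its 24 h levels met at 10.1 ± 1.08 CPM in WT and 10.3 ± 1.5 CPM in KO. Adgrb3 and Lrrtm4, adhesion proteins of excitatory synapses, had 0.73 ± 0.12 and 0.70 ± 0.12. Etv1, an ETS factor, had 1.38 ± 0.27 with KO2D and 1.08 without it, and lost its call without WT2C, WT2D, WT2E or KO2A.

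Among called genes with a mean of at least 1 CPM, the other large positive differences, at 1.32 to 2.77, belonged to Rgs9bp, Crispld2, Rflnb, Stard10, Cys1, Kcnj2, Vcan, Angpt1 and Adamts3, which fell in WT and fell less or did not pass in KO. Angpt1 (chromosome 15, 42424723 to 42676977), the ligand angiopoietin 1, was at 20.7, 22.1, 19.8 and 25.6 CPM in untreated WT and 6.42, 5.97, 5.29 and 8.83 CPM at 24 h. In KO it was at 3.15, 4.59, 6.37 and 9.72 CPM untreated and 3.14, 4.43, 5.12 and 6.69 CPM at 24 h. All untreated KO libraries lay below the untreated WT libraries and overlapped the treated ones, and the difference was 1.51 ± 0.16 (edgeR adjusted p = 0.0021). Vcan, the matrix proteoglycan versican, fell from 138 ± 18 to 28.2 ± 2.87 CPM in WT and from 36.4 ± 10.7 to 22.2 ± 6.89 CPM in KO (1.55 ± 0.20, edgeR adjusted p = 0.0026). Its response was -1.10, -0.91 and -0.94 in 3 KO cultures and 0.02 in KO2D; the difference was 1.30 without KO2D. Adamts3, a procollagen protease, fell from 29.3 ± 6.77 to 11.2 ± 3.83 CPM in WT and stood at 14.2 ± 4.83 and 12.9 ± 1.99 CPM in KO. Stard10, a lipid transfer protein, fell from 14 ± 3.59 to 4.27 ± 0.496 CPM in WT and stood at 7.14 ± 1.57 and 6.72 ± 1.01 CPM in KO (1.61 ± 0.18, edgeR adjusted p = 0.0021). Rgs9bp, an anchor of RGS9, had 124 counts over the 4 untreated KO libraries, at 0.287 to 1.19 CPM. Vcan, Angpt1, Adamts3, Stard10 and Rgs9bp passed without each culture in turn; Crispld2, Rflnb, Cys1 and Kcnj2 did not.

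Synaptic, channel and neuronal genes moved both ways. The share with a lower response was 3.57% of voltage-gated channel, 4.55% of presynaptic, 1.92% of glutamate receptor and postsynaptic and 0% of GABA synapse genes. Over all genes tested 1.34% had a lower and 0.813% a higher response. Among 56 voltage-gated channel genes, 4 had a higher response in KO (Hcn4, Kcnn1, Cacna1g and Cacnb3) and 2 a lower one (Cacnb4 and Kcna1), with a median of 0.17 (0.11 without KO2D). Kcnn1, a calcium-activated potassium channel, fell from 14 ± 2.62 to 6.83 ± 1.25 CPM in WT and stood at 7.15 ± 1.08 and 6.36 ± 0.956 CPM in KO (0.86 ± 0.15, edgeR adjusted p = 0.0121). Cacnb4, a calcium channel subunit, rose from 82.6 ± 7.71 to 130 ± 16.8 CPM in WT and stood at 98 ± 13.3 and 101 ± 5.56 CPM in KO. Among 44 presynaptic genes 3 were higher, among them Doc2b and Syn3, and 2 lower (Unc13b and Rims4). Doc2b, a calcium sensor of vesicle release, rose in KO from 23.6 ± 5.26 to 42.6 ± 7.02 CPM and stood at 60.3 ± 5.71 and 65.6 ± 4.96 CPM in WT. Of 52 glutamate receptor and postsynaptic genes 1 was higher (Lrrtm4) and 1 lower (Icam5). Of 26 GABA synapse genes 1 was higher, Gabrg1, whose cultures overlapped between genotypes. Pan-neuronal markers also split: Tubb3, neuronal beta-tubulin, was at 1556 ± 27.1 and 972 ± 52.9 CPM in WT and 939 ± 75.2 and 823 ± 24.4 CPM in KO (0.49 ± 0.07, edgeR adjusted p = 0.00605). Nefl, the neurofilament light chain, rose from 210 ± 44 to 591 ± 72.6 CPM in WT and from 244 ± 18.1 to 475 ± 71.8 CPM in KO (-0.56 ± 0.11, edgeR adjusted p = 0.0236). Hcn4 and Tubb3 passed without each culture in turn. The call of Nefl was lost without any one culture except WT2E and KO2D (-0.64 to -0.47), that of Cacnb4 without any except KO2C and KO2D (-0.68 to -0.51), and that of Kcnn1 without WT2C (0.82 to 0.98). Doc2b lost its call without WT2C, WT2F or KO2C (0.63 to 0.84), and Rims4 and Lrrtm4 without WT2C, WT2D or KO2A (-0.43 to -0.36 and 0.66 to 0.75). Unc13b lost it without any one culture except WT2F and KO2D (-0.56 to -0.44), and Icam5 and Gabrg1 without any except KO2D (-0.57 to -0.43 and 0.66 to 0.94).

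Of 27 neuropeptide genes tested, 2 were higher and 3 lower (11.1% lower, against 1.34% of all genes). Pcsk2, a convertase that cuts prohormones, fell from 173 ± 26.3 to 33.6 ± 3.58 CPM in WT and from 126 ± 18.8 to 46.3 ± 3.85 CPM in KO (0.92 ± 0.14, edgeR adjusted p = 0.00758). Npy, neuropeptide Y, rose from 16.7 ± 7.38 to 41 ± 18.7 CPM in WT and stood at 125 ± 18.3 and 140 ± 36.9 CPM in KO. Its response was 0.21, 0.45 and 0.62 in 3 KO cultures and -0.77 in KO2D (difference -1.14 ± 0.26, edgeR adjusted p = 0.0457). The call was lost without any one culture except KO2C and KO2D, with differences of -1.30 to -0.85. Npy is also an interneuron marker, and the 14 interneuron markers summed to 1140 to 2470 CPM in untreated WT and 2660 to 3610 CPM in untreated KO, with KO2D going from 2800 to 1840. The part of this in the difference of Npy was not tested.

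BDNF and its receptor were compared as the ligand and the entry point of the response. Of 30 genes of the ligand, receptors and transducers, 1 passed as higher, Ntrk2, where 0.813% of all genes did. The list's median difference was 0.00 (-0.05 without KO2D). Ntrk2 (chromosome 13, 58806569 to 59133970), which encodes TrkB, was at 687, 780, 749 and 622 CPM in untreated WT and 404, 416, 455 and 437 CPM at 24 h. In KO it was at 589, 719, 646 and 407 CPM untreated and 527, 575, 517 and 418 CPM at 24 h. TrkB RNA fell in WT without overlap. The KO groups overlapped only through KO2D, the lowest KO library at both times. In KO2A, KO2B and KO2C the 24 h libraries all lay below the untreated ones. Without KO2D the KO response was -0.27 ± 0.06 (edgeR adjusted p = 0.00576). The difference between genotypes with KO2D was 0.53 ± 0.10 (edgeR adjusted p = 0.0242). The call was lost without WT2C, WT2D, WT2E or KO2A, and the difference was 0.46 to 0.62 without 1 culture. Bdnf itself was at 53.1, 63.6, 97 and 28.5 CPM in untreated WT and 275, 211, 258 and 230 CPM in untreated KO. At 24 h it was at 66.2, 104, 120 and 76.9 CPM in WT and 230, 205, 252 and 168 CPM in KO. KO was higher at both times without overlap. The difference of -0.88 ± 0.21 did not pass (edgeR adjusted p = 0.0522), and without KO2D it was -0.79 (edgeR adjusted p = 0.0227).

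Some lists followed culture KO2D. Medians of nuclear oxidative phosphorylation genes, cytosolic ribosomal proteins and mitochondrially encoded genes were -0.14, -0.14 and -0.15 with KO2D and -0.05, -0.01 and 0.00 without it. Cholesterol synthesis and uptake went from 0.18 to -0.09. These lists held 46, 57, 12 and 25 tested genes. The mitochondrial share of counts fell from 18.5% to 10.9% in that culture, and its part in these medians was not tested. In the remaining lists the share with a lower response is set against 1.34% of all genes, with 0.813% higher. Heat shock chaperones (19 tested) had 2 lower, Chordc1 and Hspa5, which is also in the ER list (10.5%). Cytoskeletal targets of SRF (23) had 1 lower, Zyx (4.35%), and integrins, laminins and collagens (40) 2 lower (5%) and 1 higher. Extracellular proteases (35) had 1 higher, homeostatic scaling genes (31) 2 lower (6.45%) and 1 higher, and interferon-related genes (13) 2 lower (15.4%). The homeostatic calls were Nptx2, Rheb and Ntrk2 and the interferon-related ones Gimap6 and Ifi209, all counted above. FoxO targets (18) had 2 lower (11.1%), the cell-cycle inhibitor Cdkn1a and the pseudokinase Trib2. Chordc1 and Zyx lost their call without any one culture except KO2D. Cdkn1a lost it without WT2D, WT2E or KO2A, and Trib2 without WT2C, WT2D or WT2E.

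**Figure D5:**
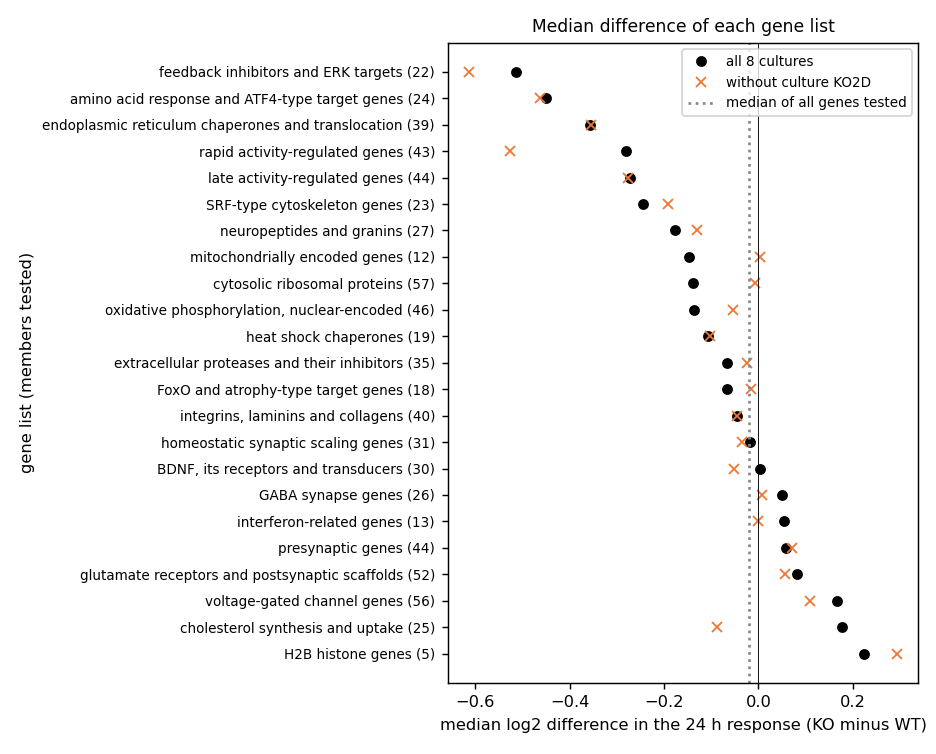
Median log2 difference in the 24 h response (KO minus WT) of each pathway list (cell type marker lists are not drawn), with the number of members tested, with all 8 cultures (circles) and without KO2D (crosses); the dotted line is the median of all genes tested, -0.02. Of the pathway lists, the feedback, amino acid, ER, rapid and late activity-regulated ones lie lowest with both, and the cholesterol list changes sign without KO2D.

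The cultures held markers of more than neurons. Pan-neuronal markers summed to 7010 to 8570 CPM over the 16 libraries. The 14 astrocyte markers summed to 659 to 757 CPM in untreated WT, 604 to 658 at 24 h, 270 to 476 in untreated KO and 278 to 547 in KO at 24 h, KO2D going from 270 to 547. Gjb6 was at 0 in all 16 libraries. Excitatory neuron markers summed to 1050 to 1410 CPM in untreated WT and 750 to 836 in untreated KO, and at 24 h to 705 to 1020 CPM in WT and 549 to 858 in KO, KO2D going from 750 to 858. Endothelial markers summed to 7.68 to 34.5 CPM and microglial ones to 8.17 to 15.2 CPM, with Tie1 at 0 throughout. In bulk RNA, fewer cells of a type and less RNA per cell cannot be told apart. Of the 13 astrocyte markers tested, 1 passed, Slc4a4, a bicarbonate transporter (0.97 ± 0.19, edgeR adjusted p = 0.0269; lost without any one culture except WT2F and KO2D, 0.84 to 1.12), and the median difference of the list went from 0.09 to -0.28 without KO2D. Of the other marker lists, endothelial (Slc2a1), interneuron (Npy) and pan-neuronal (3 of 10) members passed. Over all genes tested 1.34% passed as lower and 0.813% as higher. The part of the marked cell types in the differences above was not tested.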

How the data were processed

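Gene counts were deposited by the authors as raw whole numbers in 1 table (45792 genes, 98.8% named from GENCODE M21). Poly(A) RNA was prepared with a stranded kit, per the labels' protocols. Alignment with STAR 2.7.9a to mm10 is listed in the submitters' processing notes. The counting program, its strand setting and its gene models were not given in the sources used here. Genes passing filterByExpr (count 10, total 15) were scaled by TMM and fitted in edgeR 4.0.16 (R 4.3.3, quasi-likelihood test) with a term per culture. The p-values were Benjamini-Hochberg adjusted over all genes, with a threshold of 0.05. CPM are per effective library size, the library total times its TMM factor (0.881 to 1.04 over the 16 libraries). The culture code in the labels joins the libraries: deviations of same-culture libraries correlated at 0.175 to 0.428 (8 pairs), those of other pairs at -0.27 to 0.044 (24 pairs). Alternatives included DESeq2 1.42.0, other scalings and filters, fits without the block and without each culture. Per-culture responses used log2 CPM with a prior count of 2. Tests were tried on simulated data first. Named by rule were up to 12 called genes of each sign with the largest difference and a mean of at least 1 CPM (predicted models passed over), the 8 largest rises and 6 largest falls in the average response, up to 3 members per list by p, and Hist2h2be, Bdnf, Ntrk2 and Arc; other genes were named after their values were seen. Members and lists were chosen with earlier results of these data known. Promoters came from RefSeq (GRCm38.p6). Single-gene results of 2 list members are not reported here.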

Additional observations from a re-analysis of the deposited data

Results flagged for a closer look

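The response itself differed between the genotypes by the interaction test in edgeR for 132 genes with a higher and 217 with a lower response in KO. Within a genotype, 1 of the 4 cultures stood apart in 9 of 254 groups of 4 looked at, where chance gives about 1 in 20. In 4 of these it was KO2D: the log2 response of Tox3 was 0.946 there and 0.526 to 0.563 in the other KO cultures, that of Vcan 0.0213 against -1.1 to -0.913, and that of Gad2, which makes GABA, -0.458 against 0.253 to 0.346. The response of Hist2h2be was -1.35 against -0.0962 to 0.00428. Zyx in KO2C was at 0.269, below 0.536 to 0.574 in the others. Among WT cultures, WT2F stood apart for Cys1 (-1.49 against -2.23 to -2.18) and Hspb8 (0.842 against 2.02 to 2.12), WT2D for Odaph (3.12 against 3.92 to 4.04) and WT2C for Rps24 (0.351 against 0.176 to 0.2).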

How the results depend on the processing

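The count of genes with a genotype difference was 349. Without the replicate block it was 9, and 90 without the block and KO2D; without KO2D it was 1376. DESeq2 with the block gave 821 (2205 genes had no adjusted p), and no filter on low counts gave 1060. Among cultures whose control library is numbered 2 the count was 0, and 198 without KO2D (added after seeing the data). A term for those cultures gave 164, and 1217 without KO2D. Leaving out 1 culture gave 112 to 1376. Genes changed in WT were 6008, 3725 without the block and 1937 in the cultures numbered 2. In KO they were 3386, 1221 without the block, 1566 without the block and KO2D, 1043 in the cultures numbered 2, and 1888 (without KO2B) to 4185 without 1 culture. The KO fall was smaller by 0.153, by 0.193 with library totals only, by 0.218 in the cultures numbered 2, and by 0.124 to 0.188 without 1 culture. The causes were not tested. Few counts limit genes near silent in 1 group, such as Ptgs2 with 44 counts in untreated WT.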
